A study of Bos grunniens with 6 samples.

Results

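The miR-106b-25 and miR-106a-363 clusters are paralogs of the miR-17-92 cluster, and 7 of their mature miRNAs were followed here in cultured cells of the yak hair follicle. The members were the entries named bta-miR-106b, bta-miR-93 and bta-miR-25 for the first cluster and bta-miR-106a, bta-miR-18b, bta-miR-20b and bta-miR-363 for the second, taken by name from the 2853 entries of the deposited small-RNA table, of which 757 have cattle names. Each name matched 1 entry. Dermal papilla cells, a mesenchymal population whose signals steer hair growth, gave 3 libraries, and hair matrix cells, the dividing epithelium from which the hair shaft is built, gave the other 3. Both were isolated from wild-type (WT) yak (Bos grunniens) skin and kept in culture in DMEM/F12 with fetal bovine serum, IGF1, EGF and penicillin-streptomycin. The labels list them as a dermal and an epidermal cell. The labels call the libraries biological replicates and name no animal or culture, so the p-values measure only the spread between these libraries.

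In human and mouse, miR-106b, miR-93 and miR-25 are cut from 1 primary transcript within an intron of MCM7, a subunit of the helicase that unwinds DNA at replication origins, and the host gene is a target of E2F factors. The miR-106a-363 cluster lies on the X chromosome in those species and is known to be silent or low in many tissues. miRNAs of these clusters with the miR-17 seed are known to repress the cell-cycle inhibitor CDKN1A, and miR-25 shares targets with miR-92a. A seed, bases 2 to 8 of the miRNA, is the stretch that mainly decides which messages it pairs with.

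The seeds of the members cut across the clusters only in part. miR-18b, miR-25 and miR-363 each had a seed that no other member has. The members are shown with the seed in capitals, as the deposited table lists them with T for U. miR-106b and miR-93 of one cluster and miR-106a and miR-20b of the other have the same seed.
bta-miR-106b: tAAAGTGCtgacagtgcagat
bta-miR-93: cAAAGTGCtgttcgtgcaggta
bta-miR-106a: aAAAGTGCttacagtgcaggta
bta-miR-20b: cAAAGTGCtcacagtgcaggta
bta-miR-18b: tAAGGTGCatctagtgcagtta
bta-miR-25: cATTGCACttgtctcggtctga

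The entry of miR-363 carries the same 7 bases as the seed of miR-25, but they begin at its base 1 and not at base 2, so its bases 2 to 8 match no other cattle-named entry. Here the capitals mark those shared 7 bases.
bta-miR-363: ATTGCACggtatccatctgcg

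Of the 7 members, 3 are 1 base away from a far more abundant miRNA of the miR-17-92 cluster over 22 aligned bases, counted from the 5′ end of the member. miR-106a differs from miR-17-5p at A1C, miR-20b differs from miR-17-5p at C10T, and miR-18b differs from miR-18a at T20A. The neighbours are shown with their seeds in capitals because reads with 1 error could pass between the entries.
bta-miR-17-5p: cAAAGTGCttacagtgcaggtagt
bta-miR-18a: tAAGGTGCatctagtgcagata
No entry lay within 1 mismatch of miR-106b, miR-93, miR-25 or miR-363.

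Values are RPM, the reads of an entry divided by the reads of its library and multiplied by 1e6. The libraries rest on 23904796 to 24693655 reads each, of which 71.7% to 73.5% fall on listed entries, and 1 RPM is therefore about 24 reads. The labelled cell types were checked by markers. Epithelial miRNAs (the miR-200 family, miR-205 and miR-184, 7 entries) summed to 386 to 458 RPM in dermal papilla libraries and 80101 to 82871 RPM in hair matrix libraries, and mesenchymal ones (the miR-199 entries, miR-214, miR-143 and miR-145, 6 in all) to 88413 to 91201 and 1204 to 1421 RPM. Blood markers (6 entries) summed to 18.4 to 21.6 RPM in dermal papilla cells and 8.59 to 11.8 RPM in hair matrix cells. Most of that was miR-451, at 18.8, 17.3 and 16.5 RPM in dermal papilla libraries, against 7.05, 8.78 and 10.5 RPM in hair matrix libraries. miR-142-3p was at 0 in every library but hair matrix replicate 1, where it was at 0.040 RPM. The endothelial miR-126 (2 entries) summed to 3.68 to 4.70 RPM in dermal papilla cells and 2.57 to 4.01 RPM in hair matrix cells. The muscle markers (3 entries), nearly all of it miR-1, summed to 57.7 to 72.4 and 24.6 to 26.3 RPM. Of the melanocyte markers, miR-211 was at 0 in all dermal papilla libraries and at 0.081, 0 and 0.042 RPM in hair matrix libraries. The sum of these markers, nearly all of it miR-204, was 73.9 to 99.4 RPM in dermal papilla cells, against 2.41 to 2.83 RPM in hair matrix cells. The part of such cells in the results was not tested. In bulk libraries of this kind, fewer cells of a type and less RNA per cell cannot be told apart.

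The members of the miR-106b-25 cluster were expressed in both cell types. The 4 members followed from the miR-106a-363 cluster were close to the detection limit in both. Mature miR-19b and miR-92a, which can also come from the miR-106a-363 cluster, are not in its sum, so its whole output is not known. The 3 members of the miR-106b-25 cluster together were at 3056, 2975 and 3133 RPM in dermal papilla libraries, against 2186, 2067 and 2138 RPM in hair matrix libraries. The 4 members of the miR-106a-363 cluster together were at 1.38, 1.71 and 0.412 RPM in dermal papilla libraries, against 2.35, 2.61 and 1.87 RPM in hair matrix libraries. So the first sum lay higher in every dermal papilla library, and the second lay lower, with no overlap between cell types for either sum. Of the 503 entries that reached 1 RPM in at least 3 libraries, 84.1% did not overlap either. Of all reads of the 7 members, the 4 from the miR-106a-363 cluster held 0.0452%, 0.0575% and 0.0132% in the dermal papilla libraries (33, 41 and 10 reads). They held 0.107%, 0.126% and 0.0876% in the hair matrix libraries (58, 64 and 45 reads). The exact Clopper-Pearson 95% interval of dermal papilla replicate 3 reached from 0.00631% to 0.0242%, below the intervals of the other 5 libraries, which began at 0.0311% or higher. Intervals and floors here cover counting error only.

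The log2 ratio of the miR-106b-25 sum to the miR-106a-363 sum was 11.11, 10.76 and 12.89 in dermal papilla cells and 9.86, 9.63 and 10.16 in hair matrix cells, a difference of 1.71 between means of 11.59 ± 1.14 and 9.88 ± 0.26 (SD, n = 3 each). Because it is taken within a library, this ratio does not depend on a scaling with 1 factor per library. It is described without a test because the sums run over members picked with results known. Over 10 alternatives the difference ran from 0.66 to 2.12, the highest without dermal papilla replicate 2, and it was smaller than 1.71 under several. It was 1.06 without dermal papilla replicate 3, whose denominator is 10 reads. It was 0.80 without the most abundant member of each cluster, and 0.66 with a pseudocount of 10 RPM. With near-identical entries summed the value was 1.02. That denominator takes in far more abundant miRNAs of the miR-17-92 cluster, so this value no longer compares the sums of members.

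**Figure D1:**
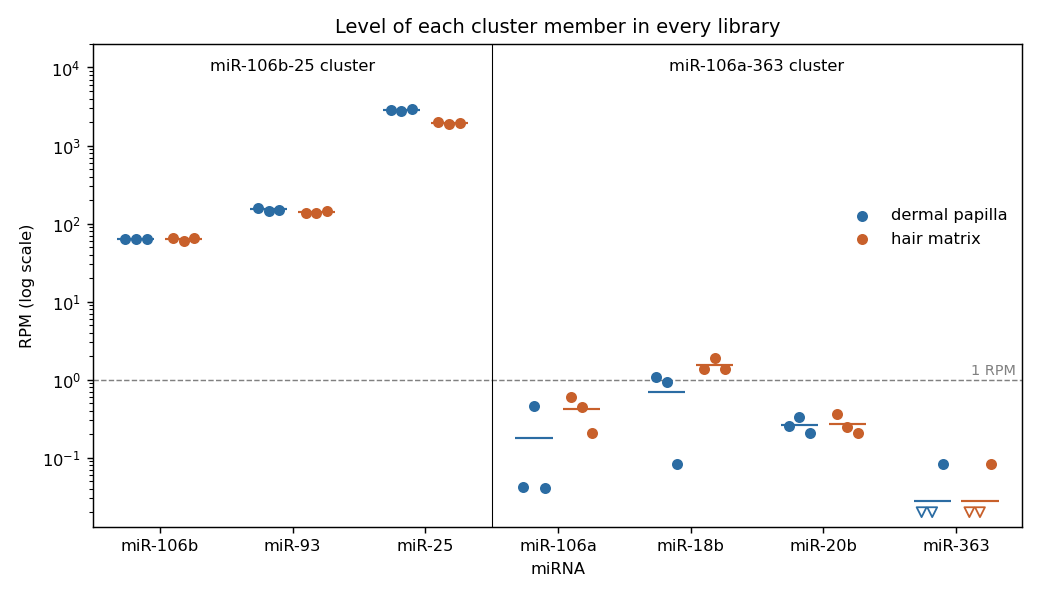
RPM of the 7 members on a log axis, with 1 point per library, short lines for means of 3 libraries, and open triangles at the foot for libraries with 0 reads. The miR-106b-25 members lie between 60.3 and 2922 RPM, and every value of the miR-106a-363 members lies at or below 1.92 RPM.

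Of the 7 members, 4 reached 1 RPM in at least 3 of the 6 libraries and were tested among 503 such entries with limma on log2(RPM + 1), with Benjamini-Hochberg adjustment over all 503. These were the 3 members of the miR-106b-25 cluster and miR-18b. At an adjusted p under 0.05, 1 tested member was higher in dermal papilla cells, where 42.1% of all tested entries were, and 1 was higher in hair matrix cells, where 40.6% were. The latter, miR-18b, needed the hair matrix libraries to pass the filter, which favoured that direction. With a minimum change of 2-fold added, 0 of the 4 members were called, against 45.1% of all tested entries. By edgeR and DESeq2 on whole reads 0 were called as well, with miR-18b past 2-fold in both but not past the adjusted p. The split of the limma calls at 2-fold over all entries, 127 with a higher level in dermal papilla cells against 100 with a higher level in hair matrix cells, was 109 and 137 after median centring, 112 and 128 after quantile normalization, and 155 and 227 of 764 tested entries without the 5 most abundant entries. Without adjustment, limma had a p under 0.05 for the same 2 members. The median log2 change of the 4 was 0.05, beside -0.01 over all tested entries. For 3 of the 4 every library of one cell type lay above every library of the other, which is true of 84.1% of all tested entries.

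miR-25, a repressor of the cell-death mediator BCL2L11 in human and mouse cells, was the most abundant member and the one that rose in dermal papilla cells. It was at 2833, 2766 and 2922 RPM in dermal papilla libraries, against 1987, 1870 and 1927 RPM in hair matrix libraries, with all dermal papilla values above all hair matrix values. Mean levels of 2840 ± 78.5 and 1928 ± 58.5 RPM (SD, n = 3 each) gave a 1.47-fold ratio, and the log2 change was 0.56 ± 0.041 (SE; 95% interval 0.46 to 0.66; limma adjusted p = 8.65e-06). It ranked 28th by mean RPM among the 2853 entries in dermal papilla cells and 30th in hair matrix cells. The change was 0.28 after median centring, which moved the median of all tested entries to -0.29, and it was 0.11 and no longer past the threshold after quantile normalization (limma adjusted p = 0.111). Over all alternatives its adjusted p ran from 3.61e-20 to 0.111.

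miR-93, which in human and mouse represses CDKN1A, was at 160.3, 146 and 148 RPM in dermal papilla libraries, against 135, 137 and 145 RPM in hair matrix libraries. The highest hair matrix value lay just under the lowest dermal papilla value. Its means were 151 ± 7.73 and 139 ± 5.60 RPM (SD, n = 3 each), and its log2 change of 0.13 ± 0.060 (SE; 95% interval -0.018 to 0.27) did not pass the test (limma adjusted p = 0.0911). The sign turned to -0.15 after median centring, -0.39 after quantile normalization and -0.07 when the 5 most abundant entries were left out of the scaling. The p passed the threshold in 2 of 26 alternatives, in opposite directions: higher in dermal papilla cells with DESeq2 (adjusted p = 0.0235) and lower there after quantile normalization (limma adjusted p = 0.000594), within a range of 0.000594 to 0.332.

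miR-106b, the first miRNA of its transcript, also targets CDKN1A in human cells. It was at 62.9, 63.2 and 62.6 RPM in dermal papilla libraries, against 64.7, 60.3 and 66.1 RPM in hair matrix libraries. The dermal papilla values fell inside the range of the hair matrix values. The log2 change was -0.017 ± 0.059 (SE; 95% interval -0.16 to 0.12; limma adjusted p = 0.806). Median centring moved it to -0.29, quantile normalization to -0.25 and scaling without the 5 most abundant entries to -0.22, each past the threshold (limma adjusted p = 0.00270, 0.0139 and 0.0187, within a range of 0.00270 to 0.972 over all alternatives), and DESeq2 gave 0.048.

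miR-25 made up most of its cluster, and more of it in dermal papilla cells. It held 92.7%, 93.0% and 93.3% of the cluster's RPM in dermal papilla libraries, against 90.9%, 90.5% and 90.1% in hair matrix libraries. The ratio of miR-25 to miR-106b was 45.1, 43.8 and 46.6 in dermal papilla libraries, against 30.7, 31.0 and 29.2 in hair matrix libraries. On the log2 scale the difference was 0.58 between means of 5.50 ± 0.046 and 4.92 ± 0.048 (SD, n = 3 each), far wider than the spread within a cell type. miR-25 to miR-93 differed by 0.43, between means of 4.23 ± 0.080 and 3.80 ± 0.079, and miR-93 to miR-106b by 0.14, between 1.27 ± 0.074 and 1.12 ± 0.063. None of the 3 ratios overlapped between cell types. Of all tested entries 84.1% did not overlap either, a share over levels of single entries, and the share among other ratios was not taken. An exact two-sided permutation test gave p = 0.1 for each of the 3 ratios, the smallest that 3 against 3 libraries allow, and 0.133 after adjustment over the 8 ratios compared. Ratios within a library are not touched by a scaling with 1 factor per library, such as TMM or median centring. Quantile normalization does change them: under it the log2 changes were 0.11 for miR-25, -0.39 for miR-93 and -0.25 for miR-106b, so that the change of miR-93 lay below that of miR-106b. The 3 were chosen after the values had been seen, and the reads of the miRNAs can differ with how well each sequence is ligated, a factor that was not measured here.

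**Figure D2:**
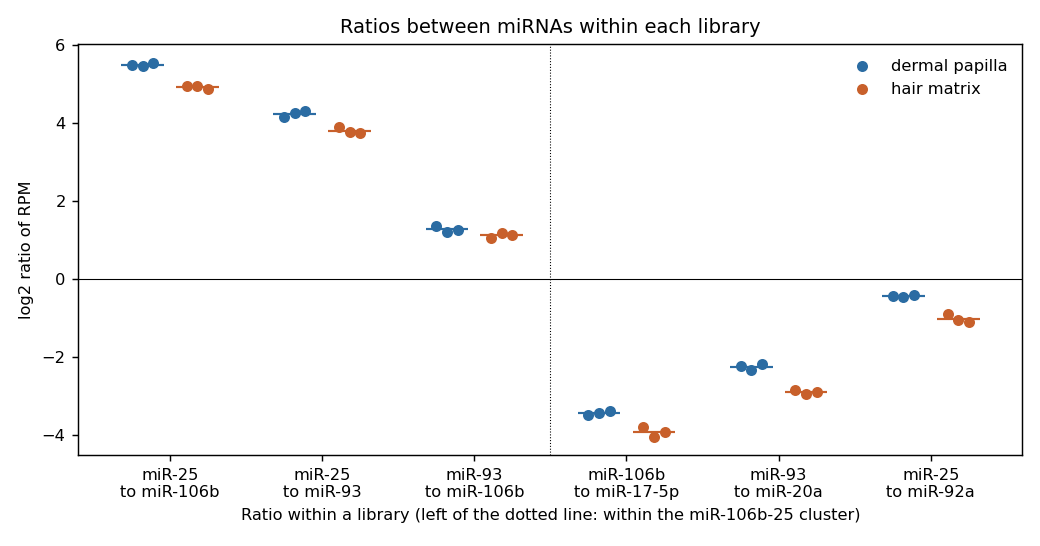
log2 ratios of RPM between pairs of miRNAs within each library, with 1 point per library and short lines for means of 3. Left of the dotted line are the ratios within the miR-106b-25 cluster, and right of it those to same-seed miRNAs of the miR-17-92 list. All 6 ratios are higher in the 3 dermal papilla libraries than in the 3 hair matrix libraries.

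miR-18b, the paralog of miR-18a, was the only tested member of the miR-106a-363 cluster. It was at 1.09, 0.919 and 0.0825 RPM in dermal papilla libraries (26, 22 and 2 reads), against 1.38, 1.92 and 1.37 RPM in hair matrix libraries (34, 47 and 33 reads). All dermal papilla values were lower than all hair matrix values, and replicate 3 stood far below the other 2 dermal papilla libraries. It fell in dermal papilla cells by 0.64 on the log2(RPM + 1) scale (SE 0.25; 95% interval -1.24 to -0.049; limma adjusted p = 0.0460), a scale that understates changes at such levels. It passed the filter on low values through the 3 hair matrix libraries and 1 dermal papilla library. Without the hair matrix libraries it would not have been tested, so the filter favoured this direction. The adjusted p was under 0.05 in 13 of 25 alternatives that tested it, in a range of 0.00240 to 0.145. The lowest value came with the reads of miR-18a merged in, which made up most of that sum. For miR-18b alone the lowest was 0.0114, with limma after median centring. The alternatives include refits of the same left-out libraries with the tested entries held fixed. The adjusted p was 0.101 with edgeR, at a log2 change of -1.19, and 0.0812 with DESeq2, at -1.09. With limma it was 0.0536 without dermal papilla replicate 3, where the change was -0.35, and 0.0836, 0.145 and 0.0785 without hair matrix replicate 1, 2 or 3.

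As a share of miR-18a and miR-18b reads together, miR-18b held 17.2%, 11.3% and 1.09% in dermal papilla libraries, against 12.8%, 17.7% and 13.1% in hair matrix libraries. In 5 of the 6 libraries the share lay between 11.3% and 17.7%. In dermal papilla replicate 3 the exact 95% interval was 0.133% to 3.89%, on 2 of 183 reads, and did not meet that of any other library. miR-18a itself was not low there, at 7.46 RPM, against 5.23 and 7.23 RPM in dermal papilla replicates 1 and 2. The summed entries of miR-18a and miR-18b fell in dermal papilla cells by 0.49 (limma adjusted p = 0.00240).

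The other 3 members of the miR-106a-363 cluster stayed under 1 RPM in every library and did not pass the filter. With no filter, limma gave log2 changes of -0.28 for miR-106a (adjusted p = 0.272) and -0.0093 for miR-20b (adjusted p = 0.987), and an adjusted p of 1.00 for miR-363. Without the 5 most abundant entries in the scaling, which let miR-106a and miR-20b pass the filter, the changes were -0.83 and -0.12 (limma adjusted p = 0.0916 and 0.584). miR-106a, a miRNA with the miR-17 seed, was at 0.0418, 0.460 and 0.0412 RPM in dermal papilla libraries (1, 11 and 1 reads), against 0.607, 0.449 and 0.208 RPM in hair matrix libraries (15, 11 and 5 reads), and the cell types overlapped. It held 0.00590%, 0.0672% and 0.00631% of its joint reads with miR-17-5p in dermal papilla libraries, against 0.0675%, 0.0452% and 0.0206% in hair matrix libraries. The share of these reads that belongs to miR-17-5p with 1 base misread was not tested.

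miR-20b, the paralog of miR-20a, was at 0.251, 0.334 and 0.206 RPM in dermal papilla libraries (6, 8 and 5 reads), against 0.364, 0.245 and 0.208 RPM in hair matrix libraries (9, 6 and 5 reads). Values of the cell types overlapped. It held 0.0315% to 0.0489% of joint reads with miR-17-5p in dermal papilla libraries and 0.0206% to 0.0405% in hair matrix libraries.

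miR-363, the last miRNA of its cluster, had 2 reads in dermal papilla replicate 3 and 2 reads in hair matrix replicate 3, both 0.08 RPM, and 0 reads in the other 4 libraries. A count of 0 allows up to 3 reads, which is 0.121 to 0.125 RPM per library. Against miR-25, 0 of 67715 and 0 of 66200 joint reads in dermal papilla replicates 1 and 2 allow a share of up to 0.00443% and 0.00453%. In hair matrix replicates 1 and 2, 0 of 49071 and 0 of 45792 allow up to 0.00611% and 0.00655%.

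In order of mean level, miR-25, miR-93 and miR-106b came first in both cell types, with no overlap between neighbours. miR-18b was next in both, and within dermal papilla cells its libraries overlapped those of miR-20b and miR-106a. miR-20b averaged 0.264 ± 0.065 RPM in dermal papilla cells, against 0.273 ± 0.082 RPM in hair matrix cells, and miR-106a averaged 0.181 ± 0.24 and 0.422 ± 0.20 RPM (SD, n = 3 each). These 2 overlapped each other in both cell types, so their order was not resolved. miR-363 had the lowest mean in both. Its libraries overlapped those of miR-106a in dermal papilla cells, where replicate 3 had 2 reads of miR-363, 2 of miR-18b and 1 of miR-106a, and lay below those of every other member in hair matrix cells.

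Member by member, one cluster was set against the other through the pairs that share a seed. The log2 ratio of miR-106b to miR-106a was 10.55, 7.10 and 10.57 in dermal papilla libraries, against 6.74, 7.07 and 8.31 in hair matrix libraries. The difference of 2.04 did not exceed the spread, since the libraries overlapped (exact two-sided permutation p = 0.2, adjusted 0.229), and 2 of the ratios rest on 1 read of miR-106a. For those 2 libraries the share of miR-106a in joint reads with miR-106b had exact 95% intervals of 0.00168% to 0.370% and 0.00167% to 0.366%. Without dermal papilla replicate 2 the difference was 3.19, and with 1 RPM added to both miRNAs it was 0.26. miR-93 to miR-20b was at 9.32, 8.77 and 9.49 in dermal papilla libraries, against 8.53, 9.12 and 9.44 in hair matrix libraries, a difference of 0.16 (exact permutation p = 0.6, adjusted 0.6). That difference was -0.091 without hair matrix replicate 1. No ratio is given for miR-25 and miR-363 because 4 libraries had no miR-363 read.

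For the third paralog cluster, miR-17-92, all 7 entries of the list were tested, and 6 of them, miR-17-5p, miR-17-3p, miR-18a, miR-19a, miR-20a and miR-19b, were lower in dermal papilla cells at an adjusted p under 0.05, 0 were higher, and miR-92a did not pass. At that threshold 40.6% of all tested entries were lower in dermal papilla cells and 42.1% were higher. The 6 stayed past the threshold in the same direction under TMM, median centring, quantile normalization and scaling without the 5 most abundant entries, while the log2 change of miR-92a, -0.027 here, was -0.30 after median centring and -0.23 without those 5 entries, both past the threshold (limma adjusted p = 0.000437 and 0.00324), and 0.051 after quantile normalization. The median log2 change of the 7 was -0.50, beside -0.01 over all tested entries and 0.13 over the 3 members of the miR-106b-25 cluster. These 7 were picked as the paralog cluster with results known, and the mature miR-19b and miR-92a can also come from the miR-106a-363 cluster, so their reads cannot be allotted to either. miR-17-3p passed the filter on low values only through the hair matrix libraries, at 0.418, 0.167 and 0.412 RPM in dermal papilla libraries, against 1.86, 1.18 and 1.67 RPM there, so its direction follows from the filter.

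**Figure D3:**
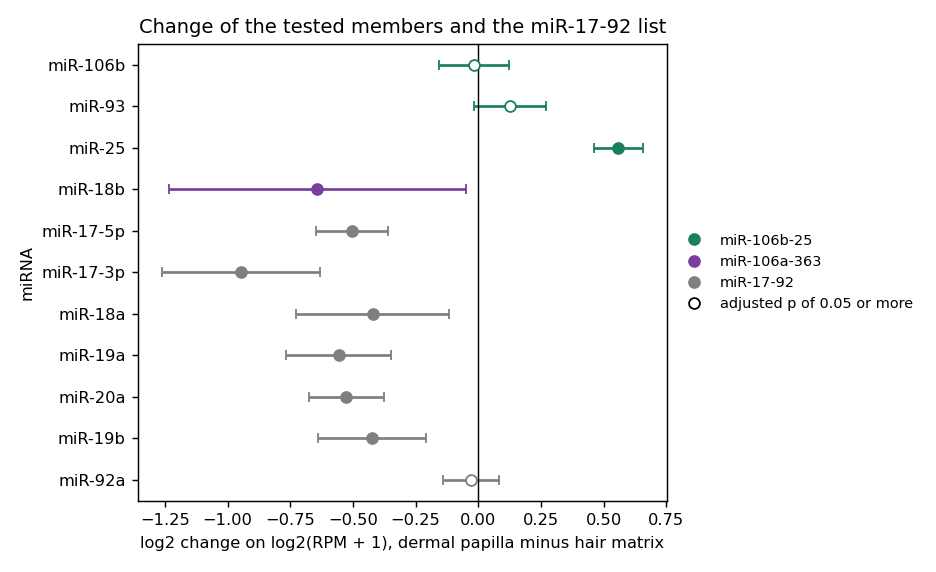
log2 change on the log2(RPM + 1) scale, dermal papilla minus hair matrix, with limma 95% intervals, for the 4 tested members and the 7 miR-17-92 entries. Filled points have an adjusted p under 0.05. miR-25 lies at 0.56, miR-93 and miR-106b lie near 0, with a sign that turned under other scalings for miR-93 and with DESeq2 for miR-106b, and 6 of the miR-17-92 entries between -0.94 and -0.42. The lowest of these, miR-17-3p, passed the filter only through the hair matrix libraries, so its direction follows from the filter.

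Same-seed miRNAs of the 2 clusters were set against each other within libraries, which removes any scaling with 1 factor per library. The ratio of miR-106b to miR-17-5p was 0.0886, 0.0924 and 0.0958 in dermal papilla libraries, against 0.0719, 0.0606 and 0.0653 in hair matrix libraries. miR-93 to miR-20a stood at 0.213, 0.197 and 0.219 in dermal papilla libraries, against 0.138, 0.129 and 0.133 in hair matrix libraries. For miR-25 to miR-92a the values were 0.738, 0.725 and 0.746 in dermal papilla libraries, against 0.534, 0.478 and 0.463 in hair matrix libraries. On the log2 scale these differ by 0.49, 0.65 and 0.59, higher in 3 of 3 dermal papilla libraries each time, with an exact two-sided permutation p of 0.1, the smallest possible, and 0.133 adjusted over the 8 ratios. These 3 ratios too were not planned and were chosen after the values had been seen, and the share of other ratios that separate in this way was not taken. The differences shrink under quantile normalization, where the log2 changes were 0.11 for miR-25 and 0.051 for miR-92a, -0.39 for miR-93 and -0.67 for miR-20a, and -0.25 for miR-106b and -0.55 for miR-17-5p.

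Together the cattle-named entries with the miR-17 seed, the 4 members and miR-17-5p and miR-20a, summed to 1685, 1636 and 1542 RPM in dermal papilla libraries, against 2076, 2254 and 2314 RPM in hair matrix libraries. The members, nearly all of it miR-93 and miR-106b, held 13.3%, 12.8% and 13.7% of that in dermal papilla libraries, against 9.64%, 8.76% and 9.14% in hair matrix libraries. The shares of the cell types did not overlap, as the levels of 84.1% of all tested entries did not, and miR-17-5p and miR-20a held the rest.

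The group with the seed of miR-25, which also holds miR-92a, miR-92b and miR-32, summed to 7033, 6921 and 7195 RPM in dermal papilla libraries, against 6485, 6563 and 6948 RPM in hair matrix libraries, and these sums overlapped. Within it miR-25 held 40.3%, 40.0% and 40.6% in dermal papilla libraries, against 30.6%, 28.5% and 27.7% in hair matrix libraries. miR-92b, transcribed from its own locus in human, moved the other way, with 1.68%, 1.67% and 1.75% in dermal papilla libraries, against 8.24%, 8.17% and 8.61% in hair matrix libraries. Its level of 120 ± 5.68 RPM in dermal papilla cells, against 556 ± 36.4 RPM in hair matrix cells (SD, n = 3 each) was 4.64-fold higher in hair matrix cells (log2 change -2.20 ± 0.065 SE, limma adjusted p = 4.83e-08). miR-32 had a log2 change of -0.08 and did not pass (limma adjusted p = 0.211), but passed as lower in dermal papilla cells after median centring, after quantile normalization and without the 5 most abundant entries, at -0.36, -0.62 and -0.28 (limma adjusted p = 0.000813, 4.67e-05 and 0.00335). Of the 8 entries outside the members that share bases 2 to 8 with one of them, 6 were tested. At an adjusted p under 0.05, 0 of the 6 were higher in dermal papilla cells, where 42.1% of all tested entries were. In hair matrix cells 4 were higher (miR-17-5p, miR-20a, miR-18a and miR-92b), where 40.6% of all tested entries were, and 2 did not pass. The median log2 change of the 6 was -0.46, beside -0.01 over all tested entries. Of the 6, miR-17-5p, miR-20a, miR-18a and miR-92a were already counted above in the list of the paralog cluster. These counts are therefore not a separate result.

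**Figure D4:**
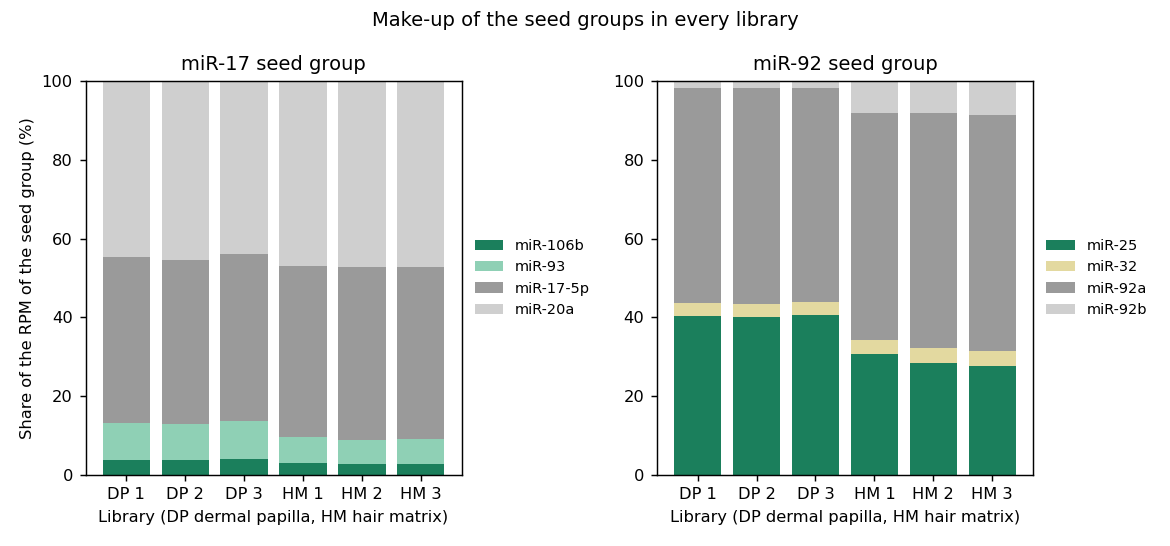
Stacked shares of RPM (%) within the miR-17 seed group and the miR-92 seed group in each library, dermal papilla (DP) left and hair matrix (HM) right. miR-106a and miR-20b, under 0.03% each, are too small to draw, and miR-25 holds 40.0% to 40.6% in dermal papilla and 27.7% to 30.6% in hair matrix libraries.

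Among tested cattle-named miRNAs outside the clusters, the patterns closest to that of miR-25, by root mean square difference of centred log2(RPM + 1) over the 6 libraries, were miR-181b at 0.035, miR-188 at 0.053 and miR-22-5p at 0.059, with log2 changes of 0.55, 0.53 and 0.49. The closest to miR-18b were miR-2284m, miR-194b and miR-504, at 0.194, 0.197 and 0.199, with log2 changes of -0.77, -0.59 and -0.66. The distances to miR-18b are larger, and those 3 entries had low levels, which averaged 0.626 to 1.63 RPM in dermal papilla cells and 1.42 to 3.45 RPM in hair matrix cells. The lowest, miR-194b, averaged 0.626 RPM in dermal papilla cells, under the filter level, against 1.42 RPM in hair matrix cells, so the filter favoured its direction. Because the distance takes in the difference between cell types, like log2 changes follow from the way these entries were picked.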

How the data were processed

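Small RNA from 3 dermal papilla and 3 hair matrix libraries was compared. The deposited values, which the authors name TPM, are RPM: 100% of them are multiples of a library-specific unit (tolerance 0.001 read), and dividing by it recovered whole reads. According to the submitters' processing notes, DESeq 1.20.0, HISAT2 2.2.1.0 and Trimmomatic were used, with no roles stated. The handling of multi-matching reads, the genome build and the miRNA reference were not given in the sources used here, and no genome position was used. The deposited table also lists each sequence and its length, which serve no test.

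The 503 entries that reached 1 RPM in 3 or more libraries were fitted with limma 3.58.1 (R 4.3.3) on log2(RPM + 1), with cell type as the only term and a mean trend, tested on simulated data. DESeq2 1.42.0 and the quasi-likelihood test of edgeR 4.0.16 on recovered reads, other pseudocounts, filters and scalings, merged near-identical entries (at most 1 mismatch over at least 18 bases) and leaving out each library were alternatives. Within-library ratios were compared by exact permutation. Replicate pairs had a chi-square per degree of freedom of 44.2 to 119 on reads, so all were counted separately.

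Named miRNAs are the members, the miR-17-92 list, tested cattle-named entries sharing a seed with a member, entries within 1 mismatch, and for the top member of each cluster the 3 closest patterns. Members and lists were chosen with earlier results of these data known.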

Additional observations from a re-analysis of the deposited data

How the results depend on the processing

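The rise of miR-25 in dermal papilla cells kept its direction in all 26 alternatives and its call in 25, the exception being quantile normalization. The count of members higher in dermal papilla cells was 1, but 0 after quantile normalization and 2 with DESeq2. The count higher in hair matrix cells, 1 (miR-18b), was 0 with a pseudocount of 0.5, with no filter, with a filter of 10 RPM (which leaves miR-18b untested), without the variance trend, and with edgeR or DESeq2. It was 2 after median centring and without the 5 most abundant entries, 3 after quantile normalization, and 3 with near-identical entries merged, since miR-106a and miR-20b then take the reads of miR-17-5p. Leaving out each library gave 0 to 1, also with the tested entries held fixed, an alternative chosen after seeing the data. At 2-fold, 1 member (miR-18b, at -1.31) was called without the 5 most abundant entries. Signs turned for 2 members that had not passed the test, miR-93 after median centring (-0.15), quantile normalization (-0.39) and without the 5 most abundant entries (-0.074), and miR-106b with DESeq2 (0.048). Over left-out libraries miR-106b ran from -0.055 to 0.0099. The log2 difference in the ratio of cluster sums, 1.71, was 0.66 with a pseudocount of 10, 0.80 without the top member of each cluster and 2.12 without dermal papilla replicate 2. That of miR-93 to miR-20b ran from -0.091 to 0.37 over left-out libraries. The other log2 ratios kept their sign in the alternatives run for them, which do not include quantile normalization. Apart from those named, the causes were not tested. Same-numbered libraries did not deviate together (correlations 0.14, 0.080 and -0.27), so the numbers were not taken as pairs. With the replicate block the counts were 1 and 1 and the change of miR-18b had an adjusted p of 0.0247. Members under 1 RPM rest on 0 to 15 reads a library, where a change could not be resolved at this depth.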
